A study of Mus musculus with 7 samples.

Results

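Untranslated regions (UTRs) flank the coding part of an mRNA, and the table of this study lists them as separate rows. The rows described here are the UTR pieces whose transcript has no whole-transcript row of its own. They were chosen by name, as rows called UTR with an Ensembl transcript ID that does not stand alone as a row, and by their counts, which had to sum to at least 7 over all 7 libraries. This left 33345 of 580839 rows, from 26054 transcripts. Of the 133400 UTR pieces in the table, 3634 belong to whole-transcript rows and 129766 lie outside them. Of those outside, 80536 were at 0 in every library and 15885 had counts that summed to less than 7. Just inside the threshold 1671 pieces had a sum from 7 to below 8, and just outside it 1874 had a sum from 6 to below 7. The 33345 pieces held 99.3% of all counts on UTR pieces outside whole-transcript rows. Since 5 of the 7 libraries are from vesicles, the threshold on the sum is met more easily by RNA found in vesicles than by RNA found in cells.

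RNA came from RAW264.7, a mouse macrophage line, and from the extracellular vesicles (EVs) it releases, with 1 library for each of 7 groups. The 2 whole-cell libraries are from a line with a control hairpin (shNS) and a line with a hairpin against Dis3l2 (shDis3l2). The 5 EV libraries are from these lines and from 3 derivatives of shDis3l2, which carry a vector alone (Vector), a Dis3l2 that resists the hairpin (Dis3l2r) or Dis3l2 D389N, which the series' design text gives as lacking catalytic activity. All 7 groups were grown with doxycycline at 1 µg/mL, so the shNS controls had it too. The labels do not say whether a line is a clone or a pool. EVs were floated in sucrose and treated with micrococcal nuclease before RNA extraction. The protocol names rRNA depletion for cell RNA and does not name it for EV RNA, so depletion and compartment cannot be told apart. Knockdown of Dis3l2 and the markers of macrophages could not be checked. The reason is that 0 transcript IDs stand in the reference tables used here, so no piece could be given a gene name. Without active Dis3l2 is therefore a class by genotype below, and how much Dis3l2 the hairpin left is not known.

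Dis3l2 is an exoribonuclease that degrades RNA from its 3' end and prefers RNA tagged with uridines. It acts outside the RNA exosome and is known for clearing aberrant noncoding RNAs as well as some mRNAs. RNA inside EVs is mostly short noncoding RNA, and mRNA is often present as fragments. A reverse transcriptase that switches templates, as used here, starts at the 3' end of an RNA without a primer site in it, so fragments and structured RNAs can both enter a library.

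Counts on whole-RNA rows (transcripts, tRNAs, SINEs and 4.5S RNA) ran from 13439408 to 25177102 in the EV libraries and came to 37041326 and 32342600 in shNS and shDis3l2 cells. These totals serve as depth, and CPM is a row's counts scaled to that depth, in the usual parts-per-million form. Values are estimated counts, which split reads among overlapping transcripts, and 73.7% of the values above 0 were whole numbers within 0.0005. No length, position or sequence stands beside a piece, so levels of different pieces were not set per length and no genome coordinates or sequences are given. Intervals and detection limits cover counting error only. EV number and RNA per vesicle cannot be told apart in such libraries.

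The pieces fell into 3 kinds by what else the table holds for their transcript. A first kind, 3889 pieces (11.7%), was the only UTR piece of its transcript, and 2667 of these transcripts had no exon or intron row either. The kind held 52.9% of the counts. The second kind was 21458 pieces (64.4%) from transcripts with several UTR pieces and with exon rows, the layout of a spliced mRNA, and held 33.9% of the counts. The third kind was 7998 pieces (24.0%) from transcripts with several UTR pieces and no exon row, with 13.2% of the counts. Some transcripts of the first kind had exon rows too, since 16359 transcripts with these pieces had exon rows and 15540 of them were of the second kind. The table does not say whether transcripts without exon rows are coding. For the third kind, and for first-kind transcripts without exon rows, the word UTR is the table's name and nothing more.

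Most pieces were thin. The median sum over 7 libraries was 24.0 counts, with quartiles at 13.0 and 56.0, and 4557 pieces had at least 100 counts. The other end was steep, since 28 pieces with at least 10000 counts held 68.7% of all counts. Of these 28, 11 were the only UTR piece of their transcript, 6 were of the second kind and 11 of the third. No piece with at least 100 counts had the same counts in all libraries as an exon, intron or whole-RNA row. Among the thin pieces 8329 shared their counts with another piece, but only 2 of those had at least 100 counts.

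Detection was patchy from library to library. Of the 33345 pieces, 6646 (19.9%) were above 0 in 1 library only and 1534 in all 7. A piece with few counts can reach few libraries, and 54.5% of those with 7 to 9 counts stood in a single library. Of 4341 pieces with at least 100 and fewer than 1000 counts, 1097 (25.3%) were at 0 in at least 1 EV library, and 755 of these had at least 50 counts in another EV library. Of the pieces with at least 1000 and fewer than 10000 counts, 12 of 188 pieces were at 0 in an EV library. The adapter carried random bases, and it is not stated whether copied reads were removed with them.

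**Figure D1:**
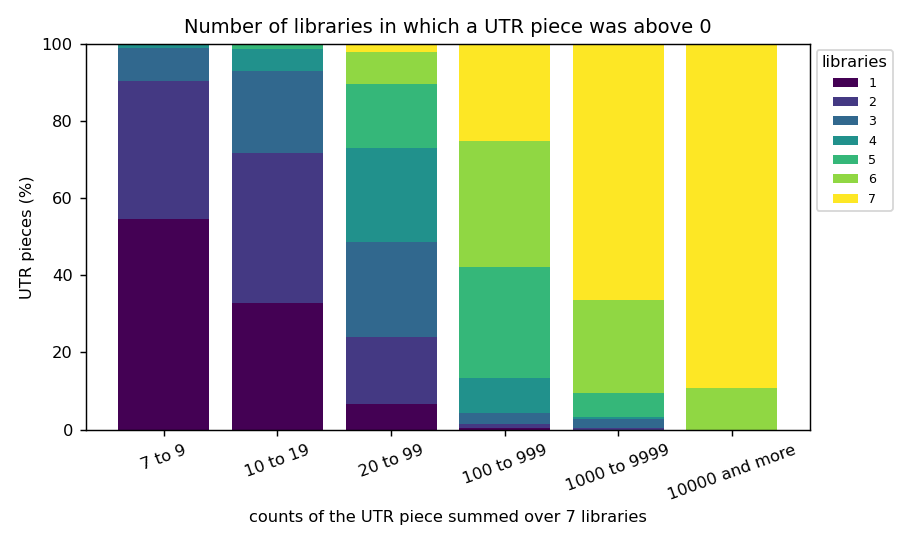
Share of UTR pieces (y axis, percent) that were above 0 in 1 to 7 libraries (colours), by the piece's counts summed over all 7 libraries (x axis). Single-library pieces make up 54.5% of the thinnest band and 0.323% of the band that starts at 100 counts, and 89.3% of the band of 10000 counts and more stood in all 7.

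The first question was whether such pieces are found in EVs or in cells. As a group they were more abundant in EVs. UTR pieces are not among the whole-RNA rows, so their shares of whole-RNA counts are ratios to depth and not parts of it. The pieces' counts equalled 0.953% of whole-RNA counts in shNS cells (exact Clopper-Pearson 95% interval 0.950% to 0.956%) and 1.03% in shDis3l2 cells (1.03% to 1.04%). The intervals were computed as if each share were a proportion. Among EVs, shNS was lowest at 5.45% (5.44% to 5.46%) and D389N highest at 7.71% (7.70% to 7.72%). Vector had 6.15% (6.15% to 6.16%), shDis3l2 6.77% (6.75% to 6.78%) and Dis3l2r 6.87% (6.86% to 6.89%). The 5 EV shares all lay above both cell shares, at means of 6.59% and 0.992%, a ratio of 6.64. The exact two-sided permutation p over libraries was 0.0952, the smallest that 5 against 2 libraries can give (adjusted p = 0.317 over 10 such tests). With all rows of the table as the denominator, the EV shares ran from 3.33% to 4.52%, and shNS and shDis3l2 cells had 0.485% and 0.496%.

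The difference was as wide without the 28 most covered pieces. Then the share was 0.130% in shNS cells and 0.385% in shDis3l2 cells, and EVs had 1.73% (shNS), 1.81% (Vector), 1.99% (shDis3l2), 2.49% (D389N) and 2.70% (Dis3l2r). EV libraries again did not overlap with cells (ratio of means 8.33, exact permutation p = 0.0952, adjusted p = 0.317). Each of the 3 kinds was higher in EVs without overlap. Pieces of the second kind, the exon-row kind, summed to 1585 and 2635 CPM in shNS and shDis3l2 cells and to between 20312 and 25613 CPM in EVs. Those that are the only UTR piece of their transcript had 6284 and 5563 CPM in these cells and between 27204 and 42148 CPM in EVs. The third kind had 1660 and 2120 CPM in cells and between 6949 and 10217 CPM in EVs. In cells the only-piece kind made up 65.9% (shNS) and 53.9% (shDis3l2) of the group's counts and the exon-row kind 16.6% and 25.5%. In EVs the exon-row kind made up 32.7% to 37.5%.

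The number of pieces detected followed another order. It was 5592 in shNS cells, 14901 in shDis3l2 cells, 18375 in shNS EVs, 16324 in shDis3l2 EVs, 17133 in Vector EVs, 19188 in Dis3l2r EVs and 13683 in D389N EVs. D389N EVs thus lay below shDis3l2 cells, and the exact permutation p for EV against cell was 0.190 (adjusted p = 0.400). The shNS cell library stood apart, with 16.8% of the pieces above 0 at the largest depth of all 7 libraries. It also had fewer counts on exon pieces, at 27300 against 555760 in shDis3l2 cells. Most of that gap lay on exon pieces of other transcripts. Exon pieces of transcripts with at least 1 of the UTR pieces had 20620.5 counts in shNS cells and 45367.5 in shDis3l2 cells. A detected piece had a median of 3.00 counts in shNS cells and 4.00 in shDis3l2 cells, against 9.15 to 18.0 in EVs.

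**Figure D2:**
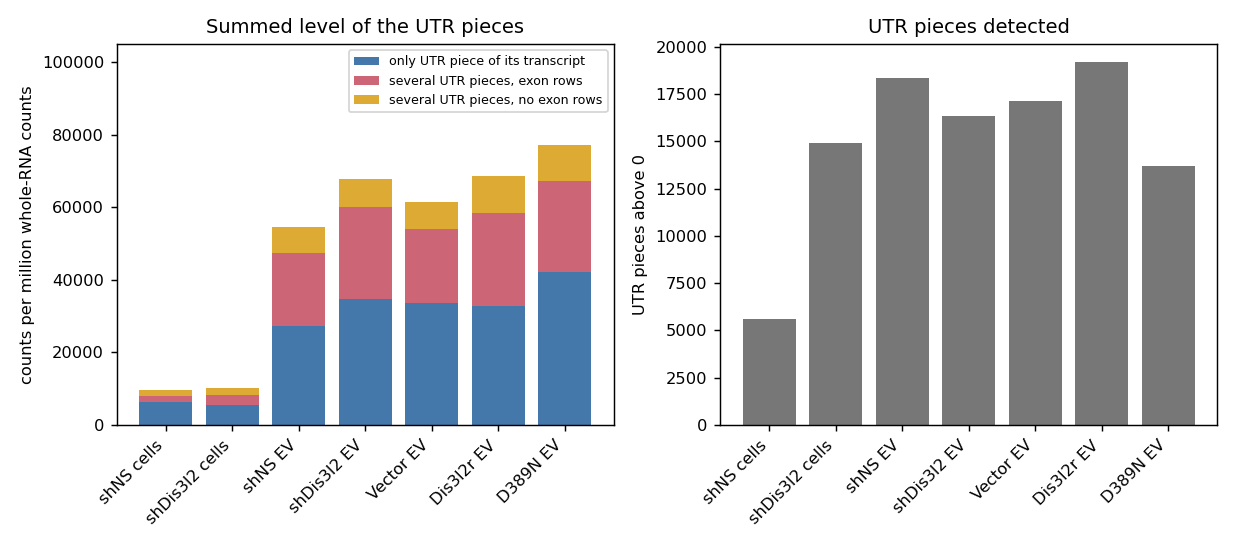
Left, the summed level of the UTR pieces in each library (y axis, CPM), stacked by kind. Right, the number of UTR pieces above 0 (y axis). The 5 EV bars on the left all exceed both cell bars, while on the right the shNS cell library has 5592 pieces and the shDis3l2 cell library 14901, more than the D389N EV library.

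Of the 28 most covered pieces, 23 were higher in each EV library than in either cell library, 3 were lower in each, and 2 overlapped. Among all rows of the table with at least 100 counts, a lower minimum than that of the 28, 35.3% were higher in each EV library and 2.61% lower in each. Ranks below follow counts over all libraries, and except for the rows named by ID they were picked after their values were seen. The piece of rank 2, from a transcript with 6 exon rows, stood at 879 and 586 CPM in shNS and shDis3l2 cells. In EVs it had 7622 CPM in shNS, 9603 in shDis3l2, 5793 in Vector, 6257 in Dis3l2r and 6174 in D389N. All EV libraries were above both cell libraries, and edgeR put the difference at a log2 fold change of 3.30 (SE 0.400, adjusted p = 9.31e-06).

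Some abundant pieces were much less unequal. Rank 7, the only UTR piece of its transcript, had 2293 and 1991 CPM in shNS and shDis3l2 cells, and 1192, 1922, 1794, 1195 and 1096 CPM in the shNS, shDis3l2, Vector, Dis3l2r and D389N EVs. It was lower in every EV library, but edgeR did not call it (log2 fold change -0.62, SE 0.407, adjusted p = 0.443). Rank 10 was also the only piece of its transcript, at 996 and 1407 CPM in the same cells and between 317 and 566 CPM in EVs. Its EV and cell values did not overlap, and it was not called either (-1.51, SE 0.473, adjusted p = 0.119).

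**Figure D3:**
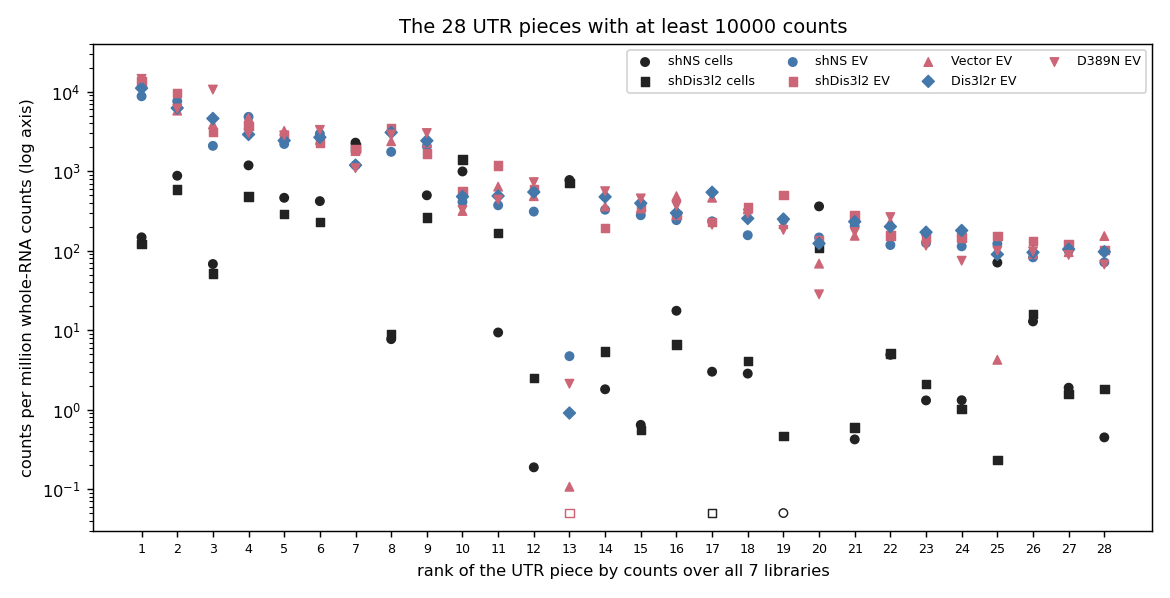
Level of the 28 UTR pieces with at least 10000 counts (x axis, rank) in each of the 7 libraries (y axis, CPM, log axis). Black marks are cells and coloured marks EVs (blue shNS and Dis3l2r, red shDis3l2, Vector and D389N), and open marks at 0.05 are libraries at 0. EV marks lie above cell marks for 23 pieces and below them for 3, of which rank 13 has the widest gap.

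Each piece was then tested in 1 edgeR quasi-likelihood fit of the whole table, 5 EV against 2 cell libraries, with the Dis3l2 genotype class as a covariate. The libraries of a compartment are different genotypes and not replicates, so the p-values measure the spread between these libraries. Of the 33345 pieces 13205 passed the filter on low counts and 20140 were not tested. At a Benjamini-Hochberg adjusted p under 0.05 edgeR called 200 higher and 7 lower in EVs, or 1.57% of the pieces tested. Over all 78569 rows tested the share called was 2.05% (1.28% higher and 0.776% lower). The share called higher was thus close to the background, at 1.51%, and the share called lower was below it, at 0.0530%. Of 28 pieces with at least 10000 counts, 22 were called higher and 1 lower. Of all 207 pieces called, 116 had at least 1000 counts and 0 had fewer than 100. The share called among all rows with at least 10000 counts was not taken, so these 28 have no matched background. The least covered of the called pieces had 393 counts.

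Without a call, most tested pieces still leaned to EVs. Log2 fold changes were above 0 for 12586 of 13205 pieces (95.3%), with a median of 4.64. Over all rows tested 88.0% were above 0, with a median of 2.38. Exon pieces leaned further, with 97.2% above 0 and a median of 5.34, and intron pieces had 85.9% and 1.79. The median of the UTR pieces is partly set by the filter. Only 188 pieces reached the filter's level of 0.423 CPM in both cell libraries, and the others could pass only through EVs or 1 cell library. Both cell libraries were at 0 for 5218 tested pieces, and with these set to the bound that 3 counts per cell library allow the median was 2.94. Among the 188 pieces well seen in cells, 159 were above 0, with a median of 2.11, and 31 were called higher and 7 lower. At 100 counts and more, 3010 of 4557 pieces (66.1%) had all EV libraries above both cell libraries and 14 (0.307%) all below. In rows of any sort with that many counts the shares were 35.3% and 2.61%. Exon pieces had 69.9% above and intron pieces 28.1%.

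Of the 200 pieces called higher, 144 were of the second kind, 29 were the only piece of their transcript and 27 were of the third kind, and their fold changes ran from 2.33 to 13.54. In 198 of them every EV library was above both cell libraries. Both cell libraries were at 0 for 81 of the 207 called pieces. Of the 7 pieces called lower, 6 were of the third kind and 1 was the only piece of its transcript, and they ran from -10.35 to -6.07. The number of calls rests on the libraries used. It was 2245 without shDis3l2 cells, 1117 without shNS cells, 113 without shNS EVs, 41 without shDis3l2 EVs, 42 without Vector EVs and 38 without D389N EVs. Leaving out a cell library leaves the cell arm with a single library, which is then assumed to vary like the EV libraries. With the shNS and shDis3l2 lines alone, each as a cell and EV pair with the line as a term, 19 pieces were called higher and 3 lower. With depth set to the pieces' own totals, which sets the summed level of the group equal in all libraries, 15 were called higher and 15 lower.

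**Figure D4:**
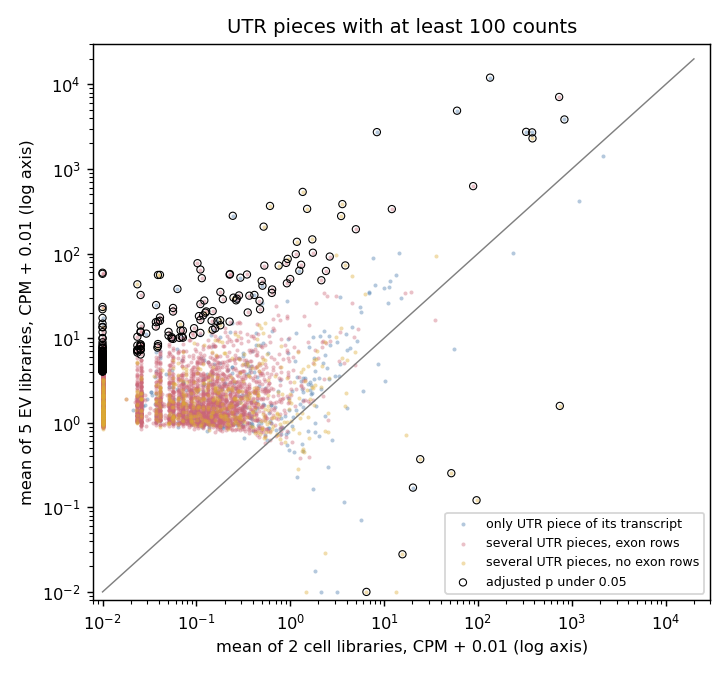
Mean CPM over 5 EV libraries (y axis) against mean CPM over 2 cell libraries (x axis) for the 4557 UTR pieces with at least 100 counts, both log axes with 0.01 added. Colours give the kind of piece, rings mark an adjusted p under 0.05, and the line marks equal levels. Most points lie above the line, many at 0 in cells on the left edge, and 7 called pieces lie below the line.

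The pieces with the smallest adjusted p in each direction are named by ID. UTR_ENSMUST00000200502.1 was also the most covered piece, with 16.7% of the group's counts, and it is the only UTR piece of a transcript without exon or intron rows. It had 148 CPM in shNS cells and 122 CPM in shDis3l2 cells. In EVs it had 8791 CPM in shNS, 13423 in shDis3l2, 12083 in Vector, 11124 in Dis3l2r and 14569 in D389N. Every EV library was far above both cell libraries, at a log2 fold change of 6.43 (SE 0.417, adjusted p = 4.64e-10 by edgeR).

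UTR_ENSMUST00000200473.1, with the same layout, had 7.72 and 9.02 CPM in shNS and shDis3l2 cells. Its EV levels were 1756 CPM in shNS, 3495 in shDis3l2, 2385 in Vector, 3081 in Dis3l2r and 2905 in D389N. The compartments did not overlap (8.32, SE 0.635, adjusted p = 6.15e-09 by edgeR), and shNS was the lowest EV library for this piece, as it was for UTR_ENSMUST00000200502.1.

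In the other direction, UTR_ENSMUST00000203816.1_0 had 777 and 713 CPM in shNS and shDis3l2 cells. It had 4.71 CPM in shNS EVs, 0 in shDis3l2 EVs, 0.107 in Vector, 0.908 in Dis3l2r and 2.12 in D389N EVs. Its log2 fold change was -9.17 (SE 1.16, adjusted p = 1.67e-05 by edgeR), although its rank among all pieces is 13. UTR_ENSMUST00000180385.1_1 had 118 and 74.9 CPM in these cells, 0.0587 CPM in shNS EVs, 0.437 in shDis3l2 EVs, 0 in Vector and Dis3l2r EVs and 0.0606 in D389N EVs. It stood at -10.35 (SE 1.42, adjusted p = 5.74e-05 by edgeR). Each is 1 of a pair of UTR pieces, and nearly all counts of the transcript were on it: the partner had 32.3 counts in all libraries for the first and 12.0 for the second.

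Single libraries of a line were then compared as log2 ratios, each with an exact conditional binomial 95% interval for counting error. A rule of size took rows with 20 or more counts in the pair, a change of 2-fold or more and an interval clear of equality. A library at 0 was set to 3 counts. In the shDis3l2 line 4984 of 5871 measured pieces (84.9%) were higher in EVs and 333 (5.67%) lower, against 45.3% higher and 20.7% lower among all rows (66.0% either way). Exon pieces had 92.1% higher and intron pieces 35.9%. In the shNS line 5439 of 5621 pieces (96.8%) were higher and 44 lower, but 95.8% of all rows were higher too, and 2.62% lower (98.4% either way). Of these 5621 pieces 3289 were at 0 in shNS cells, against 2012 of 5871 at 0 in shDis3l2 cells. With depth set to the pieces' own totals the shDis3l2 pair had 2574 higher and 1061 lower, and the shNS pair 3817 higher and 208 lower. The pairs share no library. Of the pieces past the rule in both, 2632 in all (48.0% of those in shNS and 49.5% in shDis3l2), 2510 were higher in both, 15 lower in both, 102 higher in the shNS line and lower in the shDis3l2 line, and 5 the reverse. The overlap was not counted over all rows, and most pieces were higher in either pair, so it is a description. There is 1 library a side, so no test was possible, and whether the shift differed between the lines was not tested.

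The level of UTR pieces was also read against other pieces of the same transcripts. For transcripts with exon rows and at least 1 of the UTR pieces, and without the 28 most covered pieces, there were 123 UTR counts per 100 exon counts in shNS cells and 138 in shDis3l2 cells. In EVs there were 120 in shNS, 131 in shDis3l2, 163 in Vector, 137 in Dis3l2r and 208 in D389N. These ratios overlapped between compartments (exact permutation p = 0.667, adjusted p = 0.833). Against all intron pieces of the table, and again without the 28 most covered pieces, EVs had between 4.48 and 5.47 UTR counts per 100 intron counts and the cells 0.889 (shNS) and 1.89 (shDis3l2), with no overlap (exact permutation p = 0.0952, adjusted p = 0.317). With the 28 pieces included the values were 13.3 to 17.0 in EVs and 6.52 (shNS) and 5.07 (shDis3l2) in cells. Per 100 exon counts they were then 191 to 292 in EVs and 287 (shNS) and 193 (shDis3l2) in cells. Within a transcript the counts sat mostly on a single piece. Of 4411 transcripts with several UTR pieces and at least 100 UTR counts, a median of 86.0% of the counts lay on the largest piece (quartiles 68.7% and 98.1%), and 1896 transcripts had at least 90% there. Of the 4411, 2953 had 2 UTR pieces, where the larger holds most of the counts, or an equal part, by construction. Shares were not set per length, so they do not show how evenly a transcript was covered.

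The cell lines with and without the hairpin against Dis3l2 were compared next. The summed level was 9530 CPM in shNS cells and 10318 CPM in shDis3l2 cells, a log2 ratio of 0.11 without TMM factors. This small difference rests on the depth used. With the most abundant whole-RNA row of cells left out of the depth, the summed counts equalled 1.18% of it in shNS cells and 1.91% in shDis3l2 cells. On the depth with that row kept, the 28 most covered pieces summed to 8231 and 6470 CPM in shNS and shDis3l2 cells. The other pieces summed to 1299 and 3849 CPM. By the rule of size, with scaling by TMM (trimmed mean of M values), 721 of 1095 measured pieces (65.8%) were higher and 93 (8.49%) lower in shDis3l2 cells. Of all rows 90.0% were higher and 2.04% lower (92.0% either way). Of the 1095, 483 were at 0 in shNS cells. Over all pieces, 11458 were above 0 in shDis3l2 cells only, 2149 in shNS cells only and 3443 in both. The lower detection in shNS cells moves with this comparison, and its part in the result was not tested. Among the 28 most covered pieces, 4 were higher and 5 lower of 27 measured.

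A few abundant pieces differed widely between the cell libraries. Rank 11, from a transcript with 20 exon rows, had 9.36 CPM in shNS cells and 168 CPM in shDis3l2 cells. In EVs it had 373 CPM in shNS, 1188 in shDis3l2, 641 in Vector, 489 in Dis3l2r and 440 in D389N. The shDis3l2 library was thus the higher of each parental pair, while D389N lay below Dis3l2r. Rank 25, of the third kind, had 71.0 CPM in shNS cells and 0.232 in shDis3l2 cells. In EVs it had 122 CPM in shNS, 154 in shDis3l2, 4.24 in Vector, 90.0 in Dis3l2r and 100.1 in D389N, so the Vector library was low and shDis3l2 EVs were not. For the 4 pieces named by ID, log2 ratios of shDis3l2 to shNS cells were taken with TMM factors, which the CPM leave out. These ratios were -0.01 and 0.49 for UTR_ENSMUST00000200502.1 and UTR_ENSMUST00000200473.1, and 0.14 and -0.39 for UTR_ENSMUST00000203816.1_0 and UTR_ENSMUST00000180385.1_1. In CPM, UTR_ENSMUST00000203816.1_0 was instead lower in shDis3l2 cells, at 713 against 777 in shNS cells, so its direction rests on the scaling.

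Between shDis3l2 and shNS EVs, single pieces differed both ways. Of 9074 measured pieces 2975 (32.8%) were higher and 2317 (25.5%) lower in shDis3l2 than in shNS EVs, and all rows had 22.3% higher and 29.5% lower (51.8% either way). With depth set to the pieces' own totals 2252 were higher and 2820 lower, so the balance turned. The lines of Vector and shDis3l2 EVs both carry the hairpin and no added Dis3l2. Vector against shDis3l2 EVs gave 2437 higher (27.1%) and 2550 lower (28.3%) of 9009. All rows had 21.1% higher and 29.3% lower (50.4% either way). Together 55.4% of the pieces passed the rule in that pair and 58.3% in the knockdown pair. Measured pieces had a library at 0 in 20.1% and 22.1% of cases in these pairs, against 16.2% and 18.3% of all rows. Every such piece passed the rule. The rule counts library differences of any origin, as there is no replicate.

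Re-expression was read against the empty vector. With Dis3l2r, 3144 of 9087 pieces (34.6%) were higher and 1860 (20.5%) lower than in Vector EVs, and all rows had 52.6% higher and 11.6% lower (64.3% either way). With D389N, 4804 of 9890 (48.6%) were higher and 1963 (19.8%) lower than in Vector EVs, against 45.6% and 18.2% of all rows (63.8% either way), or 3754 and 2482 with the pieces' own totals as depth. These comparisons share the Vector library. D389N against Dis3l2r EVs gave 3726 of 9553 higher (39.0%) and 2200 lower (23.0%), while all rows had 24.0% higher and 37.4% lower (61.4% either way). In these pairs, in the order given, 18.8%, 28.8% and 26.9% of the measured pieces had a library at 0. All rows had 16.3%, 24.7% and 24.2%. The D389N library also had the fewest pieces above 0 of the EV libraries and the highest median count per detected piece, 18.0.

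Knockdown and re-expression can be set side by side without a shared library, as shDis3l2 against shNS and Vector against Dis3l2r. Of 5415 pieces measured in both, 1418 passed the rule in both, or 26.8% of the knockdown list and 28.3% of the re-expression list. Of these, 317 were higher and 378 lower in both pairs, read as shDis3l2 and Vector EVs against their partners. Another 534 were higher in the knockdown pair and lower in the other, and 189 the reverse. The direction was thus the same for 49.0%. This share was not counted over all rows, so whether it is particular to the pieces was not tested.

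**Figure D5:**
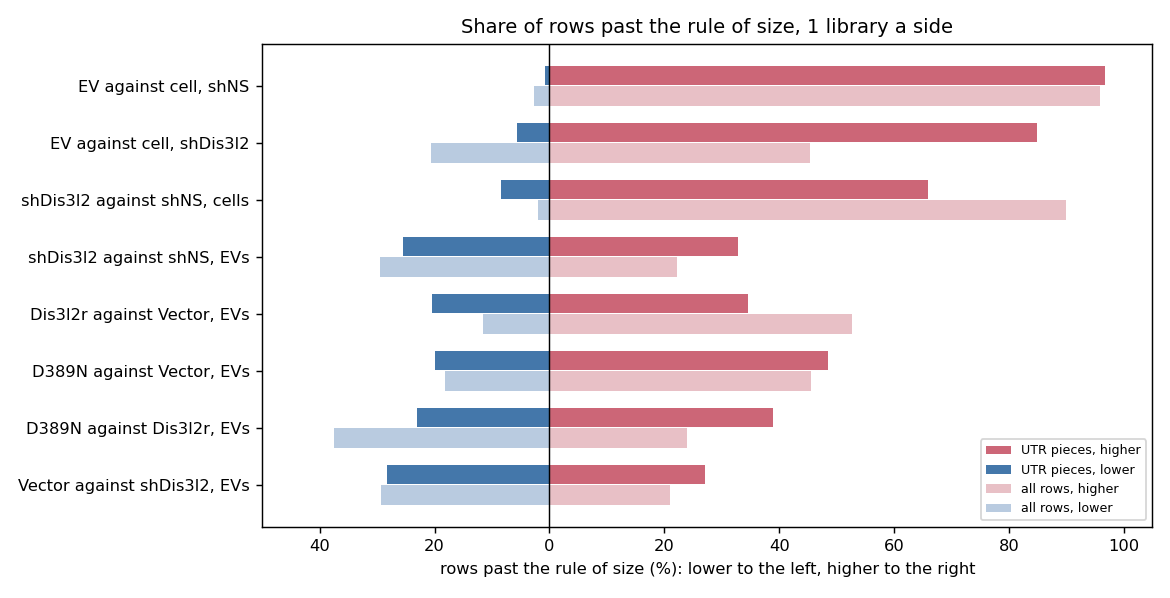
Percent of rows past the rule of size in 8 pairs of single libraries (y axis), lower to the left and higher to the right on the x axis, for the UTR pieces (dark bars) and for all rows of the table (pale bars). In the shDis3l2 line 84.9% of the pieces and 45.3% of all rows were higher in EVs, while the pairs of EV libraries have bars on both sides.

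A fit over the EV libraries set shDis3l2, Vector and D389N against shNS and Dis3l2r. By edgeR 0 of 10644 pieces tested passed an adjusted p of 0.05, and 0 of all 61481 rows (0%). At an unadjusted p under 0.05 there were 447 pieces, 262 higher and 185 lower without active Dis3l2, while 4.65% of all rows had one. DESeq2 called 37 pieces higher and 6 lower of 5590 with an adjusted p (0.769%), against 0.573% of all rows. A p above the threshold does not show that pieces were equal. Leaving out shNS EVs gave 28 edgeR calls and leaving out Dis3l2r EVs gave 41. Each of these fits has a single library with active Dis3l2, assumed to vary like the other class. The summed share of the group was 6.88% without and 6.16% with active Dis3l2 on average, and the ranges overlapped (exact permutation p = 0.600, where 0.2 is the smallest that 3 against 2 libraries can give). UTR_ENSMUST00000200502.1 stood at 0.68 (SE 0.382, adjusted p = 1.00 by edgeR) and UTR_ENSMUST00000200473.1 at 0.52 (SE 0.388, adjusted p = 1.00 by edgeR).

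Some pieces were present in EVs of a single class only. This pattern was looked for after the data were seen, as at least 10 counts in every library of a class and 0 in every library of the other. Of 3443 pieces with at least 10 counts in shDis3l2, Vector and D389N EVs, 63 (1.83%) were at 0 in shNS and Dis3l2r EVs, against 0.954% of all rows. Of 4682 pieces with at least 10 counts in shNS and Dis3l2r EVs, 207 (4.42%) were at 0 in the other 3 libraries, against 3.85% of all rows. Since the pattern chose them, these counts are a description. The most covered of the 63, a piece of the third kind, had 164 counts in shDis3l2 EVs, 216 in Vector EVs and 167 in D389N EVs, with 13.0 and 20.0 counts in shNS and shDis3l2 cells. Its CPM was 8.90, 8.58 and 7.97 in those EVs and 0.351 and 0.618 in the cells. The most covered of the 207, the only piece of its transcript, had 833 counts in shNS EVs and 523 in Dis3l2r EVs (35.2 and 38.9 CPM) and 0 in the cells. It had the smallest adjusted p of the fit, at 0.0752 by edgeR.

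The cell libraries, which did not enter that choice, were read for the same pieces. Of the 63 pieces found without active Dis3l2 in EVs, 21 were higher in shDis3l2 cells, 6 higher in shNS cells and 36 at 0 in both. Of the 207 found with active Dis3l2, 108 were higher in shDis3l2 cells, 10 in shNS cells and 89 at 0 in both. Both lists thus leaned to shDis3l2 cells, as did 80.6% of all pieces above 0 in a cell library.

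Across the 4557 pieces with at least 100 counts, Pearson's r of log2(CPM + 1) was 0.570 to 0.734 for pairs of EV libraries and 0.706 for the pair of cell libraries. For an EV with a cell library it was 0.234 to 0.516. Pieces are not independent replicates, and estimated counts split reads among overlapping transcripts, so this is a description.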

How the data were processed

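The authors deposited a single table of estimated counts (expected read counts per row, not scaled between libraries) for 7 libraries, 1 per group. The tools named per the submitters' processing notes are Salmon, Novoalign, cutadapt and UMI-tools, and the builds GRCm38 and mm10, with no versions or roles. Whether copied reads were removed is not stated.

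For tests and intervals each estimate was rounded to the nearest whole count. Depth was the total of the 3894 whole-RNA rows for EV against cell, and that total with TMM factors from the same rows within a compartment. Fits used edgeR 4.0.16 quasi-likelihood tests on every row that passed filterByExpr, with Benjamini-Hochberg adjustment over all rows tested and 4 (EV against cell) or 3 (Dis3l2 class) residual degrees of freedom. The class was read from the genotype in each title: shNS and Dis3l2r with active Dis3l2, shDis3l2, Vector and D389N without. DESeq2 1.42.0 was an alternative. It took its own size factors from the rows tested in place of the depth above, so it changes both the test and the scaling. The SE beside an edgeR log2 fold change is its absolute value divided by the square root of the test's F statistic. The fits were tested on simulated data. R 4.3.3, Python 3.11.15, scipy 1.17.1, numpy 2.4.6, pandas 2.3.3 and matplotlib 3.10.9 were used.

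IDs named in the text are the 2 higher and 2 lower with the smallest adjusted p in the EV against cell fit. Gene lists by symbol had no result, as no ID was paired with a gene. The members, lists and alternatives were chosen with earlier results of these data known. The absence and presence pattern by class, and the shares without the most covered pieces or without a library, were added after the data were seen.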

Additional observations from a re-analysis of the deposited data

How the results depend on the processing

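The labels carry no replicate numbers, and libraries pair only by line, as cells and EVs of shNS and of shDis3l2. The count of pieces called in EVs against cells, 207, came to 110 with TMM factors, 313 with totals of all rows, 30 with the pieces' own totals, 600 with DESeq2, 22 with these 4 libraries paired, the line as a term, and 2226 with the pieces fitted alone. Leaving out 1 library gave 38 to 2245, the highest with a single cell library left. Of the 207 pieces, 108 were called with TMM factors, 206 with totals of all rows, 22 with the pieces' own totals and 179 with DESeq2. These scalings put the median log2 fold change of all rows tested at 1.59, 2.69, -0.83 and 0.06, against 2.38, and that of the pieces at 4.24, 4.91, 1.28 and 1.64, against 4.64. For the Dis3l2 class, where edgeR called 0, DESeq2 gave 43 and the fit without a filter 29, and leaving out 1 library gave 0 to 41. UTR_ENSMUST00000203816.1_0, at -1.55 in that fit, ran from -5.21 (without D389N EVs) to 0.16 (without shNS EVs) as single libraries were left out, and none of these values passed the test. The mean log2 difference in share between EVs and cells, 2.72, kept its sign under every alternative run (2.19 to 3.24). In EVs against cells, the log2 fold change of UTR_ENSMUST00000200502.1, 6.43, was 3.72 with the pieces' own totals and 2.84 with DESeq2. UTR_ENSMUST00000200473.1, at 8.32, had 5.59 and 4.85. UTR_ENSMUST00000203816.1_0, at -9.17, had -11.93 and -12.03, and UTR_ENSMUST00000180385.1_1, at -10.35, had -12.98 and -14.29. Each kept its sign under every alternative run. The cause of these shifts was not tested.

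Pieces past the rule of size followed the count minimum. With 10 counts in place of 20 they were 10665 (EV against cell, shNS), 9789 (EV against cell, shDis3l2), 2796 (shDis3l2 against shNS, cells), 10502 (shDis3l2 against shNS, EVs), 9559 (Dis3l2r against Vector), 11551 (D389N against Vector), 10900 (D389N against Dis3l2r) and 9545 (Vector against shDis3l2). With 100 counts they were, in the same order, 502, 525, 108, 383, 358, 946, 630 and 394. Fewer pieces are measured at a higher minimum. Other scalings kept the sum of higher and lower pieces within 1.5 times. At the depth of these libraries 3 counts, the most that a count of 0 allows, equal 0.0810 to 0.223 CPM, and levels printed below that rest on fewer than 3 estimated counts.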
